A study of Homo sapiens with 18 samples.

Results

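The 8 genes FOS, FOSL2, JUN, JUNB, JUND, EGR1, IER2 and IER3 are AP-1 subunits and immediate early genes, and they were taken by symbol from both deposited tables, 8 of 21391 features for the inhibitors and 8 of 18350 for the siRNAs. All libraries came from LNCaP, a line of human prostate cancer cells that respond to androgen, grown in RPMI 1640 with 10% serum, so that every group shares a medium containing growth factors. In the inhibitor experiment the cells were kept for 24 h with the vehicle DMSO or with 1 of 3 inhibitors (UPF1069, olaparib, veliparib) at 10 uM. In the knockdown experiment they were transfected for 72 h with siNC, the control siRNA, or with siPARP1_A or siPARP1_B, which are aimed at PARP1, or siPARP2_A or siPARP2_B, which are aimed at PARP2. PARP1 and PARP2 are nuclear enzymes that build ADP-ribose chains on proteins, mainly at DNA breaks. Olaparib and veliparib inhibit both, and UPF1069 is described as preferring PARP2. The labels give 2 libraries for each of the 9 groups, 18 in all, and call them biological duplicates without saying whether the cultures were grown on separate days. The p-values therefore measure only the spread between these samples, which may be technical.

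AP-1 is a dimer of basic leucine zipper proteins in which a JUN protein (JUN, JUNB or JUND) pairs with another JUN or with a FOS protein such as FOS or FOSL2. The dimer binds the DNA sequence TGACTCA or a close relative of it. FOS, JUN, EGR1, IER2 and IER3 are switched on within minutes of a growth factor or stress signal, without new protein synthesis, and fall back within hours; JUND is in many cells transcribed steadily. MAP kinases drive this response: ERK acts on the serum response factor and its ELK partners at CArG boxes, and the JNK and p38 kinases act on JUN and ATF2. A single harvest at 24 h or 72 h records the late level of these transcripts and not the first burst.

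The promoters of 5 of these genes are shown because they hold elements through which the early response is usually described. RefSeq promoters of the build GRCh38.p14 were matched for 7 of the 8 genes, all but IER3. The 250 bases before each annotated transcription start are printed on the gene's own strand, 5′ to 3′. Capitals mark a CArG box, the cyclic AMP response element type TGACNTCA, the shorter core TGACG on either strand (CGTCA when it lies on the other strand), and the TATA box TATAAA.
FOS, chr14:75278578-75278827, plus strand: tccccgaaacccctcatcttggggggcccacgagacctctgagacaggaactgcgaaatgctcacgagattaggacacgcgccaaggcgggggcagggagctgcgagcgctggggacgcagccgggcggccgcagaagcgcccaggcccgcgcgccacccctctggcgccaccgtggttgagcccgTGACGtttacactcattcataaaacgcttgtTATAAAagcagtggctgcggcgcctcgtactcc
JUN, chr1:58784048-58784297, minus strand: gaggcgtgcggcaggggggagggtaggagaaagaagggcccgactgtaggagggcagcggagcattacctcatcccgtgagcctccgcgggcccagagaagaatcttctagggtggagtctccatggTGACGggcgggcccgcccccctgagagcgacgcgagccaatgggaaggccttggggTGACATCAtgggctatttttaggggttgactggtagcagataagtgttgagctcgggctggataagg
JUNB, chr19:12791236-12791485, plus strand: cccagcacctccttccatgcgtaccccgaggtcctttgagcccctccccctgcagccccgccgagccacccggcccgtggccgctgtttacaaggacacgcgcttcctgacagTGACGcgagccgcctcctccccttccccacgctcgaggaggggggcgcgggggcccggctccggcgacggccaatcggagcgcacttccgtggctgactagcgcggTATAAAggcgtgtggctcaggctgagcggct
JUND, chr19:18281623-18281872, minus strand: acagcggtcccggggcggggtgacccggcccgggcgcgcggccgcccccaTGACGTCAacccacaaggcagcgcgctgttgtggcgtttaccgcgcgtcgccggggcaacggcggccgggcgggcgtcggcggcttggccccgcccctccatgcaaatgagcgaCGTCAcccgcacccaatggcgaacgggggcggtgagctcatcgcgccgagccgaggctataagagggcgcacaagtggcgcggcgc
EGR1, chr5:138465229-138465478, plus strand: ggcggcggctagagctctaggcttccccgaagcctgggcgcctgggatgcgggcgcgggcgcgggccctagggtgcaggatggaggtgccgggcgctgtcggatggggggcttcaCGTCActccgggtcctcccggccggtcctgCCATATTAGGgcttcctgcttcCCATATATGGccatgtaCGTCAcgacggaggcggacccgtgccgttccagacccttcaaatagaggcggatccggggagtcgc
Within the 250 bases searched, EGR1 was the only one of the 7 with a CArG box. It held 2, at bases -105 to -96 and -83 to -74 from the start, whereas 1.16% of 35116 RefSeq promoters of this length hold one. TGACNTCA was present in JUN (-67 to -60) and JUND (-200 to -193) and in 6.87% of all promoters. The core TGACG, which also lies within some matches of TGACNTCA, was present in 7 of 7 and in 21.2% of all. TATAAA lay at -33 to -28 in FOS and at -31 to -26 in JUNB, and 10.7% of all promoters hold it. The AP-1 site TGACTCA was found in 0 of 7 windows (4.2% of all promoters) and the EGR1-type site GCGGGGGCG also in 0 of 7 (4.72%), while the GC box GGGCGG was found in 5 of 7 (42.6%). Both strands were searched for each motif. A match describes the letters in this window and does not show that a factor binds there. Bases further upstream were not searched, so a motif absent here may lie there.

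Values are printed in the unit of each deposited table: CPM, the reads of a gene per M reads of the library, for the inhibitor libraries, and the authors' normalised signal, here called scaled CPM because the library sizes were rescaled more strongly, for the siRNA libraries. The inhibitor libraries held 26.4 to 35.7 M reads over all features and the siRNA libraries 15.5 to 18.6 M, so 3 reads correspond to at most 0.113 CPM and 0.207 scaled CPM. PARP1 and PARP2 were low in the libraries labelled with their siRNAs. PARP1 averaged 465 scaled CPM with siNC, 5.22 with siPARP1_A and 9.02 with siPARP1_B, and PARP2 averaged 27.4 with siNC, 2.81 with siPARP2_A and 1.40 with siPARP2_B. All 4 siRNAs lowered both transcripts to some extent: PARP1 also fell to 153 with siPARP2_B and to 402 with siPARP2_A (adjusted p = 0.0194), and PARP2 fell to 21.5 with siPARP1_A (adjusted p = 0.0417) and to 18.9 with siPARP1_B (adjusted p = 0.00429). All 11 luminal prostate markers averaged at least 1 in both tables and 0 of 5 basal markers did (TP63 and KRT5 were not analysed here). As these are bulk samples, fewer cells carrying a transcript and less of it per cell cannot be told apart.

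Per kilobase of exon, the levels in the control groups of LNCaP (DMSO and siNC) differed widely between the genes. In DMSO, JUND stood at 63.9 CPM per kb, JUNB at 19.9, JUN at 19.6, IER2 at 12.2 and FOSL2 at 4.88. EGR1 (0.146), IER3 (0.105) and FOS (0.0668) were far lower, with 4 to 17 reads in each DMSO library. JUNB and JUN, neighbours in this order, differed by less than their SDs of 0.633 and 0.499 (n = 2). With siNC the first 5 kept this order, at 26.1, 21.5, 12.5, 7.01 and 4.29 scaled CPM per kb, followed by IER3 (2.77), FOS (0.291) and EGR1 (0.0493). The tables were normalised separately and the cells were handled differently, so levels are not compared between them. FOS and EGR1 rested on few reads: 4 and 10 FOS reads in the DMSO libraries, 14 and 17 with siNC, 12 and 17 EGR1 reads in DMSO and 3 and 2 with siNC. A minimum mean of 1 over a table left 5 of the 8 genes for the main test of the inhibitor table (FOSL2, JUN, JUNB, JUND and IER2) and 7 in the siRNA table (all but EGR1). FOS reached it there (mean 1.14) only through the siPARP2_B libraries, so that its siPARP2_B difference had to be large for it to be tested at all. The genes below it were tested with edgeR's quasi-likelihood test on recovered reads without a filter, an alternative chosen after the values had been seen.

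**Figure D1:**
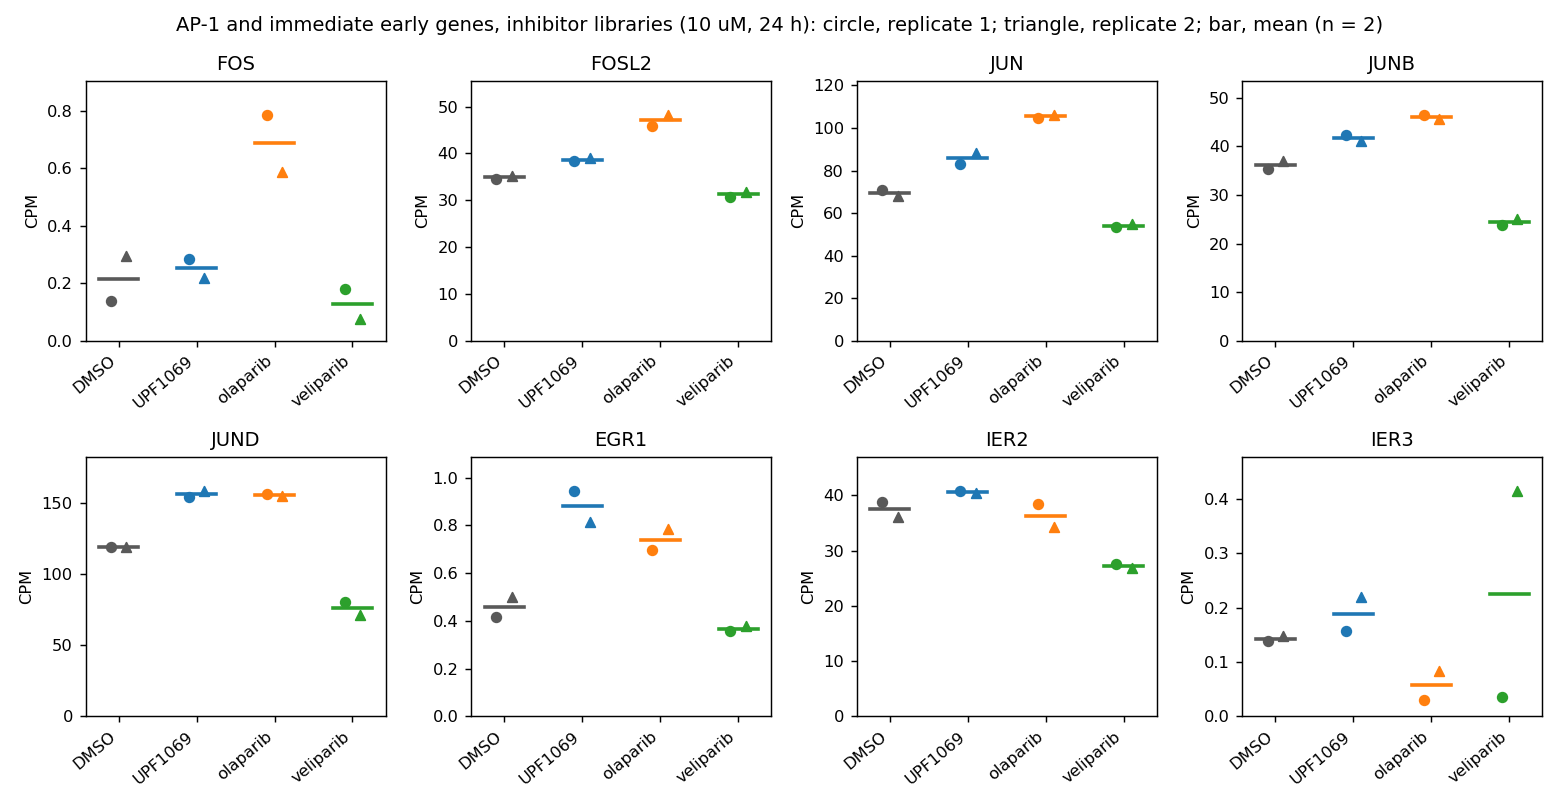
CPM of the 8 genes in each inhibitor library, with 1 panel per gene and an axis from 0; circles are replicate 1, triangles replicate 2 and bars the mean of 2. FOSL2, JUN and JUNB lie in the order veliparib, DMSO, UPF1069, olaparib without overlap. The share of all features that do so was not counted. FOS is high only in the olaparib libraries, and the IER3 panel spans 1 to 11 reads.

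Olaparib raised 4 of the 5 tested genes, at a background of 25.8% of features higher and 52.5% changed in either direction, and veliparib lowered all 5 (23.2% lower). JUN, the founding AP-1 subunit, read 70.7 and 68.2 CPM in DMSO, 83.1 and 88.3 with UPF1069, 105 and 106 with olaparib, and 53.3 and 54.7 with veliparib. No 2 groups overlapped. Against DMSO the log2 fold change on the log2(CPM + 1) scale was 0.60 with olaparib (SE 0.0449, limma's adjusted p = 2.02e-10), 0.30 with UPF1069 (adjusted p = 3.7e-05) and -0.36 with veliparib (adjusted p = 1.79e-06).

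FOSL2, a FOS protein that outlasts FOS after stimulation, followed the same order. It read 34.6 and 35.3 CPM in DMSO, 38.4 and 39.0 with UPF1069, 45.9 and 48.2 with olaparib, and 30.7 and 31.9 with veliparib. The 4 groups did not overlap, yet the steps of UPF1069 and veliparib from DMSO were small. The log2 fold change was 0.42 with olaparib (adjusted p = 5.91e-07), 0.14 with UPF1069 (adjusted p = 0.0482) and -0.15 with veliparib (adjusted p = 0.0225). The UPF1069 call was lost without any 1 of its 4 libraries (adjusted p 0.144 to 0.244), and the veliparib call was lost without either DMSO library or the first veliparib library (0.0539 to 0.135).

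JUNB, often described as a brake on JUN-driven growth, read 35.4 and 37.0 CPM in DMSO, 42.4 and 41.1 with UPF1069, 46.5 and 45.7 with olaparib, and 23.9 and 25.1 with veliparib. Again no 2 groups overlapped. The log2 fold changes were 0.34 (olaparib, adjusted p = 1.3e-05), 0.20 (UPF1069, adjusted p = 0.00786) and -0.55 (veliparib, adjusted p = 5.66e-08). The UPF1069 call was lost without the first DMSO library (adjusted p = 0.117) or the first UPF1069 library (0.106).

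JUND, the JUN protein linked to quiescence, was the most abundant of the 8. It read 119 and 119 CPM in DMSO, 154 and 158 with UPF1069, 156 and 155 with olaparib, and 80.4 and 71.2 with veliparib. The UPF1069 and olaparib libraries overlapped each other and lay above DMSO, and both veliparib libraries lay below it. The log2 fold change was 0.39 with UPF1069 (adjusted p = 2.16e-06), 0.38 with olaparib (adjusted p = 5.36e-07) and -0.65 with veliparib (SE 0.0468, adjusted p = 1.19e-09).

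IER2, a short-lived nuclear immediate early protein, was the tested gene that did not rise with olaparib or UPF1069. It read 38.8 and 36.1 CPM in DMSO, 40.9 and 40.4 with UPF1069, 38.5 and 34.2 with olaparib, and 27.6 and 26.9 with veliparib. The UPF1069 libraries lay just above DMSO and the olaparib libraries overlapped it. The log2 fold changes were 0.12 (adjusted p = 0.17; 95% interval -0.00806 to 0.240) and -0.04 (adjusted p = 0.556; -0.168 to 0.0796), against -0.45 with veliparib (adjusted p = 3.85e-06).

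Read against all features, UPF1069 raised 4 of these 5 genes where 10.3% of the 13337 features tested were higher, with a median log2 fold change of 0.20 against -0.02 over all features. The median was 0.38 against 0.00 with olaparib and -0.45 against -0.00337 with veliparib. The 3 comparisons share the DMSO libraries. How many of all features had groups without overlap was not counted, so a lack of overlap only describes the values printed. DESeq2 on recovered reads did not call FOSL2 with UPF1069 (adjusted p = 0.107) or veliparib (0.138).

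FOS, EGR1 and IER3 could be read only from small counts. FOS had 26 and 21 reads in the olaparib libraries (0.787 and 0.588 CPM), against 4 and 10 in DMSO (0.138 and 0.294), 9 and 7 with UPF1069 (0.284 and 0.219) and 5 and 2 with veliparib (0.179 and 0.0755). Both olaparib libraries lay above every other library, and the other groups overlapped. Olaparib raised FOS 3.18-fold in mean CPM (edgeR without a filter, log2 1.61, adjusted p = 0.00286), where this test called 35.2% of features in either direction. UPF1069 (log2 0.17, adjusted p = 0.897) and veliparib (-0.77, adjusted p = 0.477) did not pass.

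EGR1, a zinc finger factor of the early response, had 30 and 26 reads with UPF1069 (0.946 and 0.814 CPM), 23 and 28 with olaparib (0.696 and 0.785), 12 and 17 in DMSO (0.415 and 0.5) and 10 and 10 with veliparib (0.357 and 0.377). The order ran from UPF1069 through olaparib and DMSO to veliparib without overlap between neighbours. UPF1069 raised it 1.92-fold (edgeR log2 0.93, adjusted p = 0.0438; 15% of features called). Olaparib (1.62-fold, log2 0.68) gave an adjusted p of 0.107 with edgeR and 0.0462 with limma without a filter, and veliparib did not pass (log2 -0.33, adjusted p = 0.655). IER3, a regulator of survival and ERK signalling, had 1 to 11 reads per library; the veliparib pair alone spanned 1 and 11 reads, and no inhibitor comparison passed with edgeR.

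**Figure D2:**
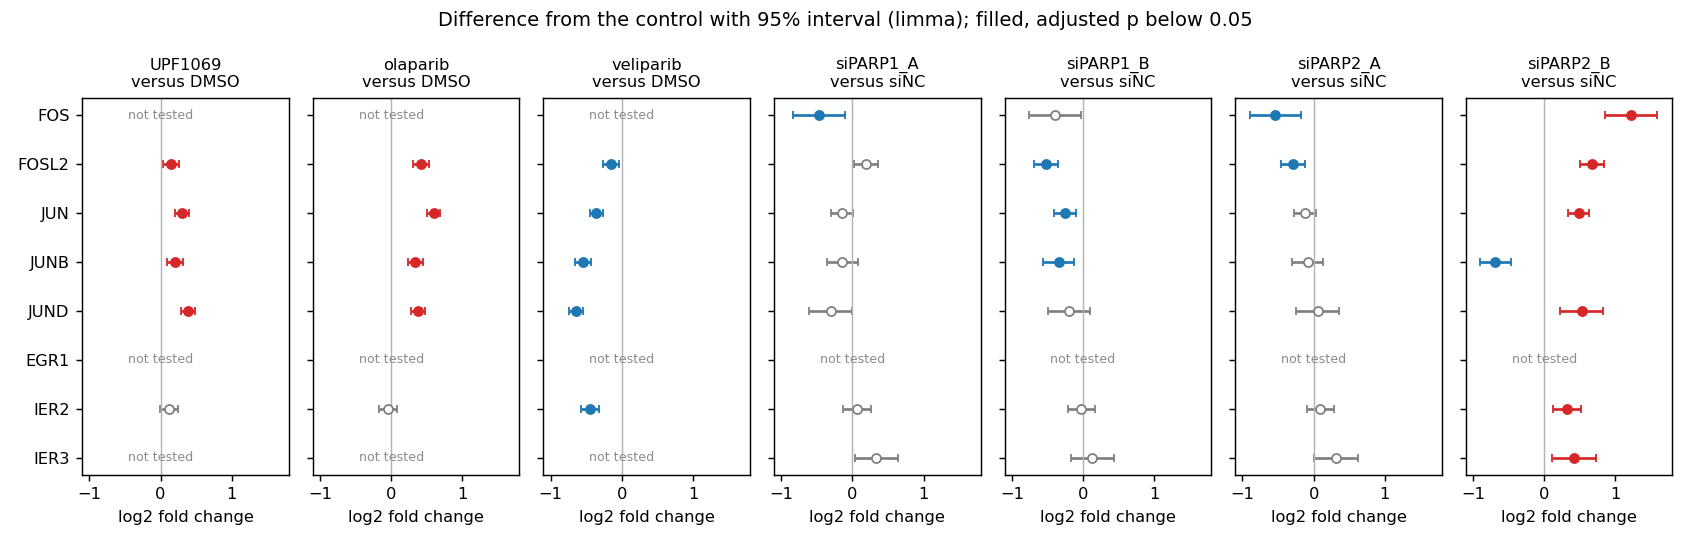
Log2 fold change from DMSO or siNC on the log2(value + 1) scale for each gene (rows) in each of 7 comparisons (panels); points are limma estimates, bars 95% intervals, and filled points have an adjusted p below 0.05. UPF1069 and olaparib gave 4 filled points each on the higher side, veliparib 5 on the lower side, and siPARP2_B 6 higher and JUNB lower. FOS was tested in the siRNA panels only because siPARP2_B was high.

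GC content moved with the veliparib values. These transcripts are rich in G and C: the longest annotated transcript held 53.3% in FOSL2, 56.7% in JUN, 61.7% in IER2, 64.9% in JUNB and 69.7% in JUND, against a median of 48.1% over the tested features of the inhibitor table. Across 13075 features, which are not independent replicates, the log2 fold change of veliparib fell with GC content (Spearman's rho -0.69), while rho was 0.11 for UPF1069 and -0.12 for olaparib. The 2 veliparib libraries also differed from each other along GC (rho 0.51 for replicate 2 minus replicate 1). After the library values were corrected for GC content and length, the veliparib changes shrank to -0.20 for JUN (adjusted p = 0.000201), -0.19 for JUNB (adjusted p = 0.00325), -0.15 for JUND (adjusted p = 0.00452), -0.17 for IER2 (adjusted p = 0.0222) and -0.11 for FOSL2 (adjusted p = 0.0676). JUND thus moved from -0.65 to -0.15, while its olaparib value moved from 0.38 to 0.47 and its UPF1069 value from 0.39 to 0.36. The 4 olaparib calls held under every alternative run (13 per gene).

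**Figure D3:**
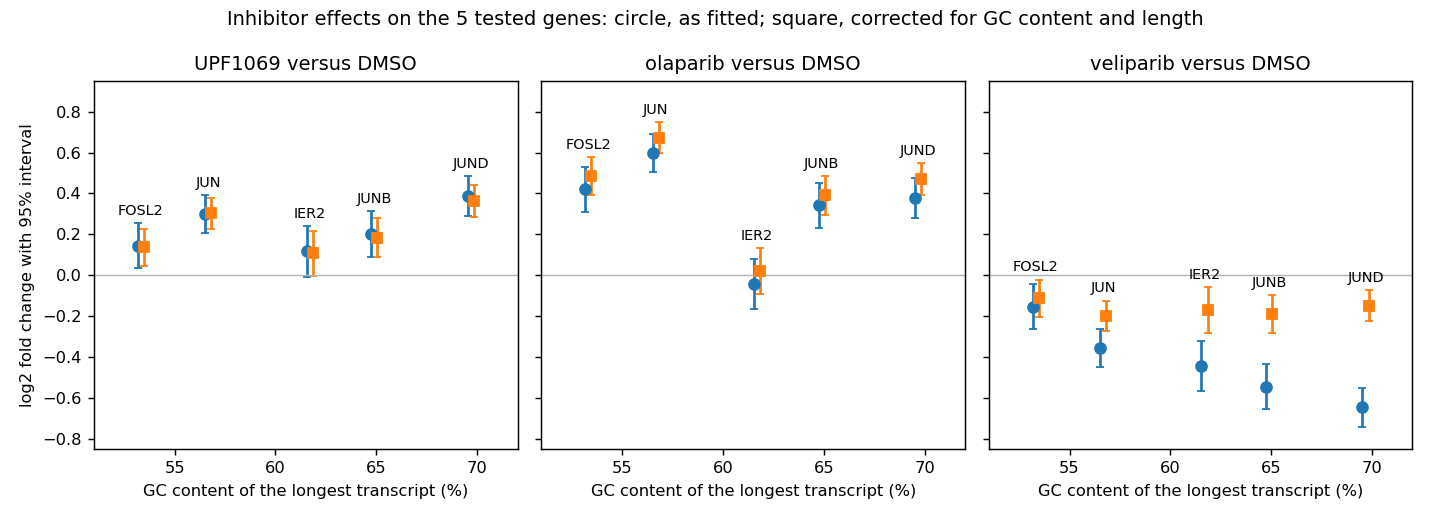
Log2 fold change from DMSO with 95% interval (vertical axis) against the GC content of each gene's longest transcript in percent (horizontal axis), for the 5 genes tested and 3 inhibitors; circles are as fitted and squares are corrected for GC content and length. The uncorrected veliparib values descend from -0.15 for FOSL2 to -0.65 for JUND, and the corrected ones lie between -0.11 and -0.20.

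The inhibitors were compared with each other at the matched dose and time in 3 pairs, with p-values adjusted over all features of each pair. Veliparib differed from both of the others for every tested gene. UPF1069 exceeded veliparib by 1.04 on the log2 scale for JUND, 0.75 for JUNB, 0.66 for JUN, 0.56 for IER2 and 0.30 for FOSL2 (adjusted p 3.26e-13 to 6.35e-05), where 25.9% of features were higher and 50.8% differed. Olaparib exceeded veliparib by 1.03 for JUND, 0.95 for JUN, 0.89 for JUNB, 0.57 for FOSL2 and 0.40 for IER2 (adjusted p 3.52e-14 to 5.05e-06), where 31.7% were higher and 59.5% differed. With the GC correction all 10 differences still passed, and JUND differed by 0.51 (UPF1069) and 0.62 (olaparib). By edgeR without a filter, FOS (log2 2.38, adjusted p = 0.000207) and EGR1 (1.01, adjusted p = 0.023) were also higher with olaparib than with veliparib, where 39% of features were called. EGR1 was higher with UPF1069 than with veliparib (1.25, adjusted p = 0.00477), where 31.4% were called.

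UPF1069 and olaparib differed for some of these genes and not for others, at a background of 51.2% of features called in either direction (24.2% higher, 27% lower). JUN was lower with UPF1069 than with olaparib by 0.30 (log2 -0.30, adjusted p = 9.74e-06) and FOSL2 by 0.28 (-0.28, adjusted p = 0.000147). The log2 difference for JUNB (UPF1069 minus olaparib) was -0.14 (adjusted p = 0.0336). That of IER2 was 0.16 (adjusted p = 0.0296), and the call was lost without either UPF1069 library or the second olaparib library (adjusted p 0.101 to 0.406). The JUNB call was lost without any 1 of its 4 libraries (0.0779 to 0.202), and DESeq2 made neither call (0.147 for JUNB, 0.0568 for IER2). JUND differed by 0.01 (adjusted p = 0.889), with a 95% interval of -0.0882 to 0.106, and by -0.11 (adjusted p = 0.016) after the GC correction, which turned the sign. The same correction ended the IER2 call (0.09, adjusted p = 0.179) and moved JUNB to -0.21 (adjusted p = 0.00037). FOS was lower with UPF1069 (edgeR log2 -1.43, adjusted p = 0.00636; 34.2% of features called), and EGR1 did not pass (0.24, adjusted p = 0.565).

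**Figure D4:**
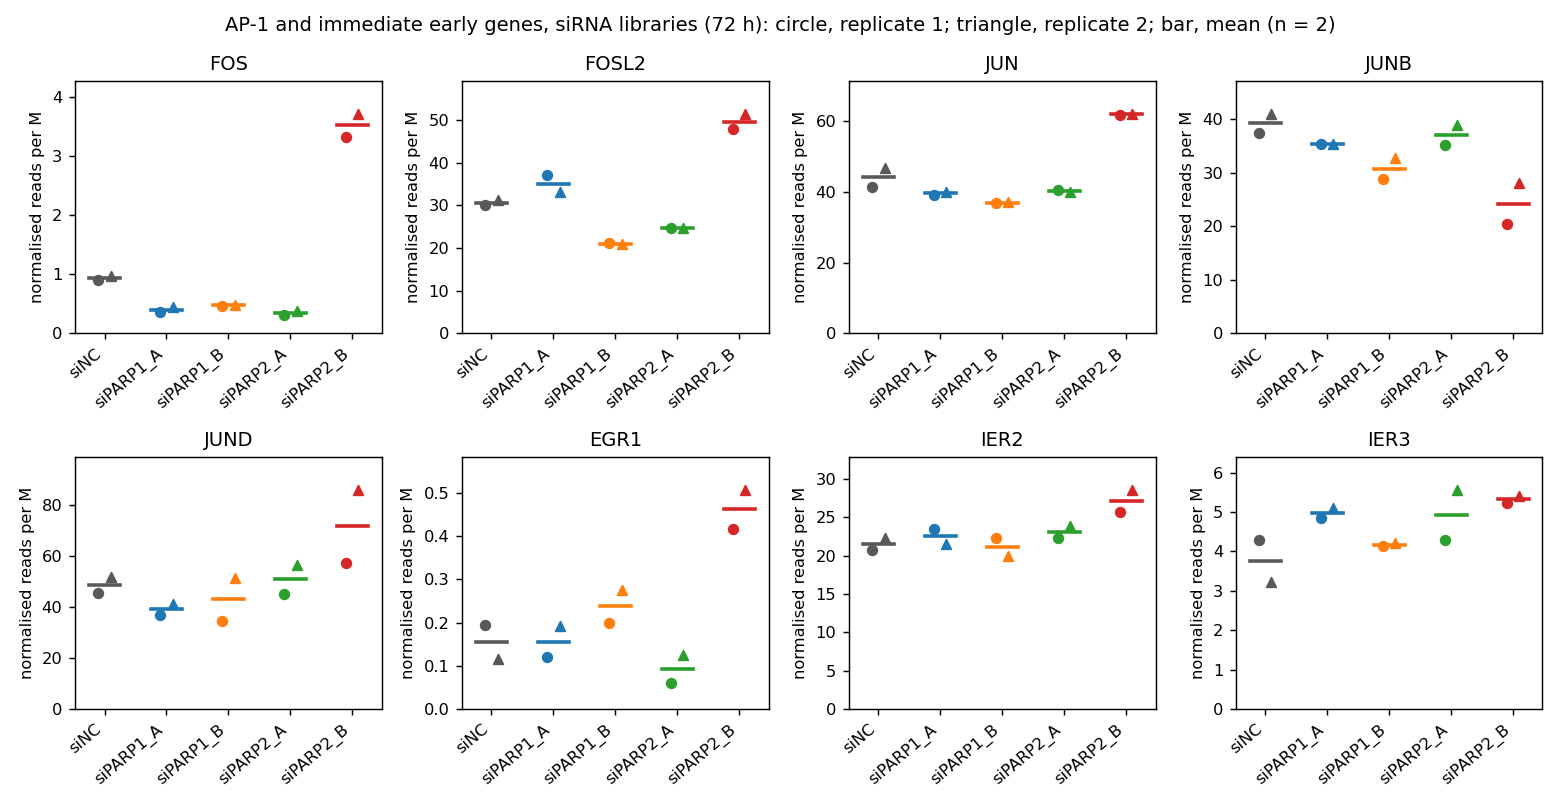
Scaled CPM of the 8 genes in each siRNA library, with 1 panel per gene and an axis from 0; circles are replicate 1, triangles replicate 2 and bars the mean of 2. The siPARP2_B libraries are highest for FOS, FOSL2, JUN, JUND, EGR1 and IER2 and lowest for JUNB.

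In the knockdown experiment siPARP2_B stood apart. The 7 tested genes differed from siNC, 6 higher and JUNB lower, where 66.1% of features were called in either direction. FOS, 1 of the 6, was tested only because siPARP2_B was high, so its rise was a condition of the test. The other 3 siRNAs changed 1 to 3 genes each, all of them downward. FOS read 0.909 and 0.976 with siNC (14 and 17 reads), 3.33 and 3.72 with siPARP2_B (56 and 66 reads), 0.363 and 0.446 with siPARP1_A, 0.466 and 0.484 with siPARP1_B, and 0.306 and 0.375 with siPARP2_A (5 to 7 reads in each of the last 6 libraries). The siPARP2_B libraries lay above siNC and the other 6 lay below it. On the log2(value + 1) scale, which understates changes at this level, FOS rose by 1.22 with siPARP2_B (SE 0.176, adjusted p = 1.41e-06), or 3.74-fold in mean value. FOS fell by 0.54 with siPARP2_A (log2 -0.54, adjusted p = 0.0142) and by 0.47 with siPARP1_A (-0.47, adjusted p = 0.0277), and siPARP1_B gave -0.40 (adjusted p = 0.0761). The siPARP1_A call, also made by edgeR without a filter (adjusted p = 0.0235; 39.8% of features called), was lost without any 1 of its 4 libraries (0.0609 to 0.119), and the siPARP2_A call without the second siNC (0.0686) or the first siPARP2_A library (0.0723).

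FOSL2 separated all 5 groups. It read 30.1 and 31.2 with siNC, 37.1 and 33.2 with siPARP1_A, 21.2 and 20.9 with siPARP1_B, 24.8 and 24.8 with siPARP2_A, and 47.8 and 51.5 with siPARP2_B. No groups overlapped, and the 2 siRNAs of either target lay on opposite sides of siNC. FOSL2 rose with siPARP2_B (log2 0.68, adjusted p = 8.27e-08), fell with siPARP1_B (-0.52, adjusted p = 1.44e-05) and fell with siPARP2_A (-0.30, adjusted p = 0.0041), while siPARP1_A gave 0.19 (adjusted p = 0.0557). The siPARP2_A value was -0.11 (adjusted p = 0.204) after the GC and length correction, and that of siPARP1_A was 0.26 (adjusted p = 0.00357). FOSL2 with siPARP1_A was also called by edgeR (adjusted p = 0.031), with relative log expression size factors (0.0357) and without the second siPARP1_A library (0.0346).

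JUN read 41.5 and 46.9 with siNC, 39.3 and 40.1 with siPARP1_A, 36.8 and 37.1 with siPARP1_B, 40.7 and 40.1 with siPARP2_A, and 61.8 and 62.1 with siPARP2_B. The last pair lay above all other libraries and the remaining 6 lay below siNC. JUN rose with siPARP2_B (log2 0.48, adjusted p = 3.21e-06) and fell with siPARP1_B (-0.25, adjusted p = 0.00866), the latter call being lost without the second siNC library (adjusted p = 0.14). Values with siPARP1_A (-0.15, adjusted p = 0.0944) and siPARP2_A (-0.12, adjusted p = 0.174) did not pass, though both did without the first siNC library (0.0246 and 0.0463).

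JUNB went against the others with siPARP2_B. It read 37.4 and 40.9 with siNC, 35.3 and 35.3 with siPARP1_A, 28.8 and 32.7 with siPARP1_B, 35.1 and 38.8 with siPARP2_A, and 20.4 and 28.1 with siPARP2_B. The siPARP2_B pair was lowest, the siPARP1_B pair next, and siPARP2_A overlapped siNC. JUNB fell with siPARP2_B (log2 -0.69, adjusted p = 3.54e-06) and with siPARP1_B (-0.34, adjusted p = 0.0123), while siPARP1_A gave -0.14 (adjusted p = 0.258) and siPARP2_A -0.08 (adjusted p = 0.548). The siPARP1_B call was lost without the second siNC library (adjusted p = 0.119) or the first siPARP1_B library (0.153).

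JUND replicates lay far apart in several groups. It read 45.5 and 52.0 with siNC, 37.1 and 41.2 with siPARP1_A, 34.8 and 51.5 with siPARP1_B, 45.1 and 56.8 with siPARP2_A, and 57.5 and 86.2 with siPARP2_B. Replicate 2 was the higher one in 5 of 5 groups, as it also was for FOS. The replicates also differed along GC content, with a rho for replicate 2 minus replicate 1 of 0.41 with siNC, 0.28 with siPARP2_B, 0.11 with siPARP2_A, -0.23 with siPARP1_B and -0.26 with siPARP1_A, and the part of this in the JUND spread was not tested. JUND rose with siPARP2_B (log2 0.53, SE 0.146, adjusted p = 0.00278), where leaving out the first siNC library (adjusted p = 0.0525) or the second siPARP2_B library (0.142) ended the call. JUND gave -0.31 with siPARP1_A, at an adjusted p of 0.0777, but 0.0357 with edgeR without a filter and 0.00133 with only the groups compared. With siPARP1_B it gave -0.20 (adjusted p = 0.304), which became -0.47 (adjusted p = 0.026) without the second and 0.08 without the first siPARP1_B library. With siPARP2_A it gave 0.06 (adjusted p = 0.769; -0.10 to 0.22 with 1 library left out).

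Against siNC, IER2 and IER3 passed the test with siPARP2_B. IER2 read 20.7 and 22.3 with siNC and 25.7 and 28.6 with siPARP2_B, a rise of 0.32 on the log2 scale (adjusted p = 0.0041; 0.0625 without the second siPARP2_B library). The other 3 siRNAs overlapped siNC for IER2, at 20.0 to 23.8, with log2 fold changes from -0.02 to 0.09. IER3 read 4.29 and 3.22 with siNC (66 and 56 reads), 4.84 and 5.10 with siPARP1_A, 4.13 and 4.21 with siPARP1_B, 4.28 and 5.57 with siPARP2_A, and 5.23 and 5.41 with siPARP2_B. IER3 gave 0.34 with siPARP1_A (adjusted p = 0.0583), 0.32 with siPARP2_A (adjusted p = 0.0793) and 0.13 with siPARP1_B (adjusted p = 0.514). Without the first siNC library the first pair passed (adjusted p 0.0229 and 0.0307), and siPARP2_A also passed without its own first library (0.0345). IER3 rose with siPARP2_B (log2 0.42, adjusted p = 0.0156), a call lost without the second siNC library (adjusted p = 0.208) or the second siPARP2_B library (0.0617). EGR1 had 7 and 9 reads with siPARP2_B and 1 to 4 in each of the other 8 libraries. Its siPARP2_B comparison with siNC gave an adjusted p of 0.0738 with edgeR and 0.0197 with limma, both without a filter, where edgeR called 50% of features.

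Many features moved in these libraries, and the counts are read against that. With siPARP2_B, 30.9% of the 12701 tested features were higher and 35.2% lower, and the median log2 fold change of the 6 tested genes other than FOS was 0.45 against -0.03 over all features. With siPARP1_A, 1 of 7 genes was called where 54.4% of features were (28.9% lower), with siPARP1_B 3 of 7 where 40.4% were (23.9% lower), and with siPARP2_A 2 of 7 where 49.4% were (24.9% lower), all of the calls being lower. The 4 comparisons share the siNC libraries. As with the inhibitors, the share of all features whose groups did not overlap was not counted. DESeq2 on recovered reads ended the calls of FOS with siPARP1_A (adjusted p = 0.104) and siPARP2_A (0.0574), JUN with siPARP1_B (0.0648), and JUND (0.0527) and IER3 (0.0719) with siPARP2_B. The summed level of the 11 luminal markers was 7151 to 7535 with siNC, 2706 to 2713 with siPARP2_B, 3801 to 3849 with siPARP2_A, 4174 to 4192 with siPARP1_A and 6488 to 6538 with siPARP1_B. The 7 stromal markers summed to 3.90 with siNC and to 10.8 to 12.1 with siPARP2_B. The 8 immune and endothelial markers summed to 1.82 to 2.24 and to 8.23 to 8.56 in the same order. Both sums were low in both groups, and 3 and 1 of those markers averaged at least 1. The stromal marker COL3A1 (0.176 with siNC, 4.05 with siPARP2_B) did so only because siPARP2_B was high, and it is part of the stromal sum. The luminal sum was also lower with olaparib (3461 to 3487 CPM) than in DMSO (5712 to 5812). The part of these markers in the results was not tested.

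The siRNAs aimed at PARP2 differed from each other on most of these genes, and those aimed at PARP1 on 1 of the 7. siPARP2_A and siPARP2_B differed for 6 of the 7 tested genes, where 64.8% of features were called (34.3% higher, 30.6% lower). One of the 6, FOS, was tested only because siPARP2_B was high. FOS was lower with siPARP2_A by 1.75 on the log2 scale (-1.75, adjusted p = 3.49e-09), FOSL2 by 0.97 (-0.97, adjusted p = 1.36e-10) and JUN by 0.60 (-0.60, adjusted p = 9.54e-08), and JUNB was higher by 0.60 (adjusted p = 2.1e-05). JUND (-0.47, adjusted p = 0.00695; -0.71 after the GC correction) and IER2 (-0.23, adjusted p = 0.0366) were also lower, and both calls were lost without the first siPARP2_A library (0.134 and 0.192) or the second siPARP2_B library (0.274 and 0.258) and with DESeq2 (0.0921 and 0.0585). IER3 differed by -0.10 (adjusted p = 0.564; 95% interval -0.409 to 0.205). EGR1 had 3 reads in all with siPARP2_A and 16 with siPARP2_B (edgeR adjusted p = 0.0199; 48.5% of features called). siPARP1_A and siPARP1_B differed in FOSL2 alone of the 7 (log2 0.71, SE 0.0817, adjusted p = 6.52e-08), where 54.8% of features were called. JUND was called as well without the first siPARP1_B library (-0.39, adjusted p = 0.0454).

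Set against the mean of the 2 siPARP1 siRNAs, the mean of the 2 siPARP2 siRNAs was higher for 5 of 7 genes, FOS (log2 0.77), JUND (0.54), JUN (0.38), FOSL2 (0.36) and IER2 (0.19; adjusted p = 0.0151 at most, and 0.0629 for IER2 with DESeq2), where 33.3% of features were higher. JUNB (-0.14, adjusted p = 0.0999) and IER3 (0.14, adjusted p = 0.265) did not pass. The IER2 call was lost without replicate 2 of any of the 4 siRNAs (adjusted p 0.0624 to 0.0788), and JUNB was called without the second siPARP2_B library (-0.25, adjusted p = 0.00165). FOS was tested only because siPARP2_B was high, and this result rested on siPARP2_B. Without its 2 libraries FOS gave -0.10 (adjusted p = 0.626), FOSL2 -0.13 (adjusted p = 0.145) and JUNB 0.16 (adjusted p = 0.0598), all 3 with the sign turned, JUN gave 0.08 (adjusted p = 0.351), IER2 0.07 (adjusted p = 0.452), and JUND alone passed (0.31, adjusted p = 0.00865).

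The other genes of the early response went in different directions with each treatment. Of 34 other immediate early and early response genes, 26 were tested in the inhibitor table. With UPF1069, 11 rose and 0 fell (median log2 0.14), where 10.3% of all features were higher and 14% lower. BTG2, an antiproliferative p53 target (62.97 to 172.2 CPM, log2 1.44), the stress kinase PLK3 (0.94) and IER5 (0.82) led. With olaparib, 4 rose and 10 fell, led by PLK2 (-0.98), KLF4 (-0.89) and the Notch target HES1 (-0.62). With veliparib, 1 rose and 14 fell (median -0.28), where 17.2% of all features were higher and 23.2% lower. The nuclear receptor NR4A1 (-0.57), the mRNA decay factor ZFP36 (-0.52) and IER5L (-0.45) led. These veliparib values are as fitted, without the GC correction, and over all features they fell with GC content (Spearman's rho -0.69). Thus olaparib raised JUN, FOSL2, JUNB and JUND while more of the other early genes fell than rose, at a background of 25.8% higher and 26.8% lower.

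**Figure D5:**
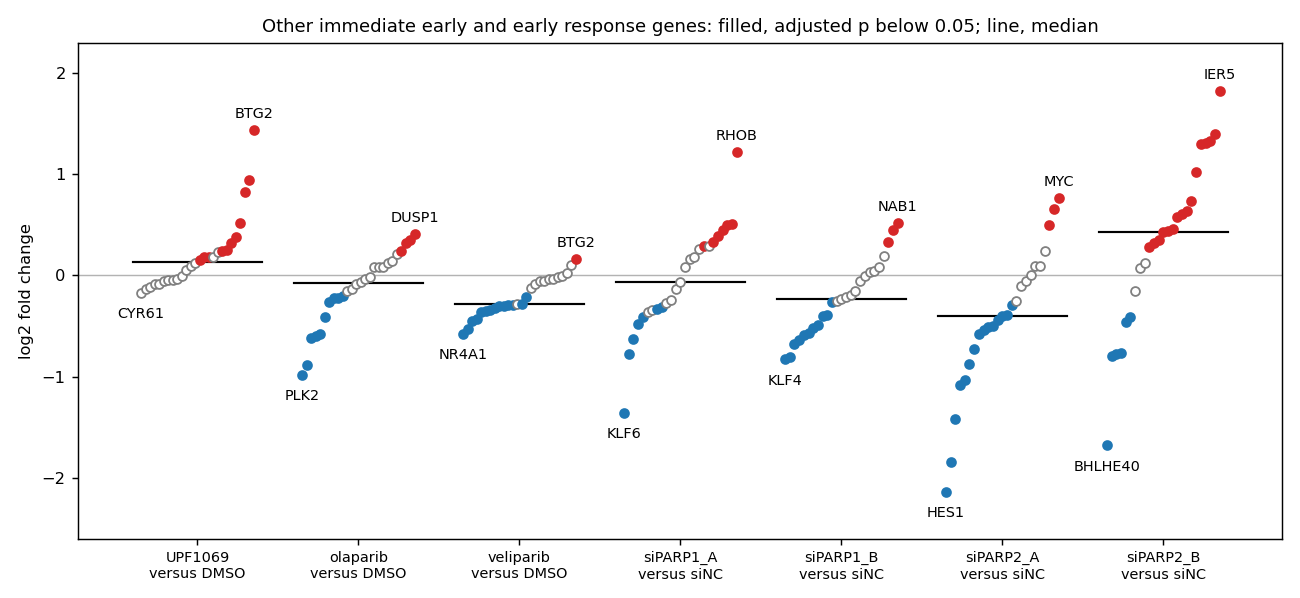
Log2 fold change from DMSO or siNC (vertical axis) of each tested gene among the 34 other immediate early and early response genes, sorted within each of 7 comparisons; filled points have an adjusted p below 0.05, red higher and blue lower, and lines are medians. The median was 0.43 with siPARP2_B and -0.40 with siPARP2_A, and the leading genes are named.

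Of these 34 genes, 25 were tested with the siRNAs. With siPARP2_B, 16 rose and 6 fell (median 0.43), where 30.9% of all features were higher and 35.2% lower. IER5 (5.04 to 20.5, log2 1.82), the circadian repressor BHLHE40 (-1.68) and IER5L (1.39) led. With siPARP2_A, 3 rose and 15 fell (median -0.40; 24.5% and 24.9% of all features), led by HES1 (-2.14), BTG2 (-1.85) and NR4A1 (-1.42). The direct comparison of siPARP2_A with siPARP2_B gave 4 higher and 18 lower (34.3% and 30.6% of all features). BTG2 (-2.42), KLF4 (-2.21) and HES1 (-1.99) were in front. siPARP1_A raised 7 and lowered 7, near the shares of 25.5% higher and 28.9% lower over all features. KLF6 (-1.36), the small GTPase RHOB (1.22) and HES1 (-0.78) were in front. siPARP1_B raised 3 and lowered 11 (16.4% and 23.9% of all features), led by KLF4 (-0.83), the MAP kinase phosphatase DUSP1 (-0.80) and KLF6 (-0.68).

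Other basic leucine zipper genes that can join or oppose AP-1 were measured in 7 of 12 cases. FOSB, FOSL1 and the BATF genes are among the 5 that had no tested feature in either table. ATF3, a stress-induced partner of JUN, rose with UPF1069 (39.0 to 45.7 CPM, log2 0.22, adjusted p = 0.00254) and siPARP2_A (0.33, adjusted p = 0.0026), and with siPARP2_B from 23.8 to 64.7 (1.41, adjusted p = 2.27e-13). It fell with veliparib (-0.17, adjusted p = 0.00938). JDP2, a repressor that dimerises with JUN proteins, fell with all 3 inhibitors (-0.49 with UPF1069, -0.23 with olaparib, -0.46 with veliparib) and with siPARP2_A (-0.31) and siPARP2_B (-0.99). ATF2, the usual partner of JUN at TGACNTCA, fell with siPARP2_B (-0.56) and rose with siPARP1_B (0.28). The small MAF gene MAFF fell with siPARP1_A (-0.71), siPARP1_B (-0.51) and siPARP2_A (-0.94). In all, olaparib gave 1 higher and 3 lower, veliparib (without the GC correction) 0 and 3, and UPF1069 1 and 1. The siRNAs gave 0 and 3 (siPARP1_A), 1 and 1 (siPARP1_B), 1 and 2 (siPARP2_A) and 3 and 3 (siPARP2_B). The shares of all features higher and lower were 25.8% and 26.8% with olaparib, 17.2% and 23.2% with veliparib and 10.3% and 14% with UPF1069. They were 25.5% and 28.9% with siPARP1_A, 16.4% and 23.9% with siPARP1_B, 24.5% and 24.9% with siPARP2_A and 30.9% and 35.2% with siPARP2_B.

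Genes induced by ERK and feeding back on it were mostly lower or did not pass. Olaparib lowered 6 of 8 tested and raised 0, where 26.8% of all features were lower and 25.8% higher. Among the 6 were the phosphatase DUSP4 (29.2 to 8.62 CPM, log2 -1.65, limma's adjusted p = 1.39e-15), the receptor signalling inhibitor SPRY1 (-0.82) and PHLDA1 (-0.67). Veliparib, without the GC correction, lowered 4 and raised 0 (23.2% and 17.2% of all features). UPF1069 raised 1 (DUSP4, 0.34) and lowered 2 (10.3% and 14% of all features). Of 9 tested in the siRNA table, siPARP1_A lowered 4 and raised 2 (28.9% and 25.5% of all features), with SPRY4 falling from 13.2 to 0.399 (-3.35). siPARP1_B lowered 3 and raised 1 (23.9% and 16.4% of all features), and siPARP2_A lowered 4 and raised 1 (24.9% and 24.5%). siPARP2_B lowered 3 and raised 3 (35.2% and 30.9%), with DUSP2 falling by 2.07 (log2 -2.07). SPRY4 also fell with siPARP1_B (-1.45) and siPARP2_A (-1.67), while PHLDA1 rose with both (0.98 and 1.18).

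Upstream, the receptors, RAS, RAF and MAP kinases and the serum response factors were measured nearly in full, 32 of 33 with the inhibitors and 33 of 33 with the siRNAs. UPF1069 raised 1 and lowered 6, olaparib 5 and 10, and veliparib, without the GC correction, 5 and 13. The shares of all features higher and lower were 10.3% and 14%, 25.8% and 26.8%, and 17.2% and 23.2% in the same order. Olaparib lowered the receptor EGFR (57.3 to 37.3 CPM, log2 -0.60) and ELK4 (-0.57) and raised the receptor ERBB2 (173 to 240 CPM, log2 0.47). Each siRNA lowered more than it raised: siPARP1_A 19 against 5, siPARP1_B 14 against 7, siPARP2_A 14 against 3 and siPARP2_B 19 against 3. Over all features the lower calls also outnumbered the higher ones, at 28.9% against 25.5%, 23.9% against 16.4%, 24.9% against 24.5% and 35.2% against 30.9% in the same order. The JNK genes MAPK8 (66.5 to 8.65, log2 -2.81) and MAPK9 (-1.52) fell with siPARP1_A. The p38 gene MAPK14 fell with siPARP1_B (-1.20), ELK4 with siPARP2_A (-0.93), and the receptor gene ERBB3 with siPARP2_B (-1.23).

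Genes described in textbooks as AP-1 targets were mostly too low to test, with 3 of 14 tested for the inhibitors and 5 for the siRNAs. HBEGF, a ligand of EGFR, rose with olaparib (5.18 to 10.3 CPM, log2 0.87, adjusted p = 6.66e-08) and siPARP2_B (7.11 to 19.6, log2 1.34, adjusted p = 2.31e-09) and fell with siPARP1_A (-0.73) and siPARP1_B (-0.37). The metalloproteinase MMP10 rose with siPARP2_B from 0.126 to 18.9 (log2 4.13 on the log2(value + 1) scale, adjusted p = 4.15e-16). Like FOS, MMP10 and the receptor gene PLAUR (0.637 to 2.88) were tested only because they were high there. The cyclin gene CCND1 fell with all 4 siRNAs, most with siPARP2_B (352 to 103, log2 -1.76). Of the other 3 genes siPARP2_B raised HBEGF and VEGFA (0.27, adjusted p = 0.00287) and lowered CCND1. The other siRNAs raised 0 of the 5, where 16.4% to 25.5% of all features were higher. Of the 3 tested with the inhibitors, olaparib raised 1 and lowered 1, where 25.8% of all features were higher and 26.8% lower. Veliparib, without the GC correction, raised 0 and lowered 2 (17.2% and 23.2% of all features). UPF1069 gave 0 changes of 3, where 24.3% of all features were called.

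The patterns of the 5 genes tested in both tables were compared with those of 11711 features over the 18 libraries, as log2(value + 1) minus the mean of the control libraries of the same table. Because libraries of a group share their treatment, Pearson's r only describes likeness. FOSL2 was most like the kinase gene DAPK2 (r = 0.95), CBLB (0.95) and CASK (0.95), and JUN was most like ITM2C (0.95) and the autophagy receptor SQSTM1 (0.93). JUNB was most like the lysosomal protease CTSD (0.96), LDHD (0.93) and TMEM132A (0.93). JUND was most like POLR2E (0.91), SLC22A18 (0.90) and JOSD2 (0.90), and IER2 was most like RNF5 (0.92), SCAND1 (0.92) and PPP1R35 (0.91). None of those named was another of the 5 genes, and FOS, EGR1 and IER3 could not be named because they were not tested in both tables. Between pairs of the 5, r ran from 0.55 to 0.98 over the inhibitor libraries and from -0.62 to 0.86 over the siRNA libraries. All of these r values are without the GC correction, and the veliparib fold changes fell with GC content over all features (Spearman's rho -0.69). The part of GC content in the likeness was not tested.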

How the data were processed

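RNA-seq was available as 2 tables of gene-level values for 18 libraries, 2 in each of 9 groups. Per the submitters' processing notes, which give no roles, the build was hg19 and the tools included HTSeq 0.6.1, TopHat2 2.1.0, edgeR 3.12.0 and bcl2fastq 2.18. The deposited inhibitor values are CPM of library sizes that the authors scaled (factors 0.991 to 1.01). The deposited siRNA values are a normalised signal, reads divided by library sizes that had been rescaled (factors 0.891 to 1.04), called scaled CPM here. In every library 100% of values were whole multiples of 1 read, within 0.01 read, which gave the reads behind each value. All columns of values had a sample (0 without).

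Features with a table mean of at least 1 were tested with limma 3.58.1 (R 4.3.3) on log2(value + 1), with a trend, all groups of a table in 1 fit, and Benjamini-Hochberg adjustment over all tested features at 0.05, 2-sided. The inhibitor fit had 4 residual degrees of freedom and the siRNA fit 5. edgeR 4.0.16 on recovered reads called 3243 features with UPF1069, 7178 with olaparib, 5520 with veliparib, 6957 with siPARP1_A, 4997 with siPARP1_B, 6331 with siPARP2_A and 8454 with siPARP2_B against their controls. Further alternatives were DESeq2 1.42.0, relative log expression size factors, other filters and pseudocounts, left-out libraries, a replicate block, and a correction for GC content and length of the longest GENCODE 29 transcript (available for 98.0% and 98.2% of tested features). On simulated data limma and edgeR were checked, and DESeq2 was not. Confidence intervals of fold changes are limma's 95% intervals.

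The members and gene lists were chosen with earlier results of these data known. Named genes are the 8 members, PARP1 and PARP2, up to 3 genes of each list with the largest absolute change among those called in a comparison, and the 3 features most like each member. Genes named for one comparison are also given elsewhere where they passed, and a few that the rule selects are not reported here.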

Additional observations from a re-analysis of the deposited data

Results flagged for a closer look

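The 2 siRNAs aimed at PARP2 had different effects on 6 genes by a direct test of the difference (siPARP2_A minus siPARP2_B, limma, log2 scale, n = 2 libraries each). FOS differed by -1.754 (adjusted p = 3.49e-09), from effects against siNC of -0.54 and 1.22, but it was tested only because siPARP2_B was high, so that a high level there was a condition of the test. FOSL2 differed by -0.972 (adjusted p = 1.36e-10), from -0.30 and 0.68, and JUN by -0.604 (adjusted p = 9.54e-08), from -0.12 and 0.48. JUNB differed by 0.605 (adjusted p = 2.1e-05), from -0.08 and -0.69. JUND differed by -0.468 (adjusted p = 0.00695), from 0.06 and 0.53, and IER2 by -0.227 (adjusted p = 0.0366), from 0.09 and 0.32. PARP1 stood at 153 scaled CPM with siPARP2_B and 402 with siPARP2_A, against 465 with siNC, and its part in these differences was not tested. Between the 2 siRNAs aimed at PARP1, FOSL2 differed by 0.712 (adjusted p = 6.52e-08), from 0.19 with siPARP1_A and -0.52 with siPARP1_B. A same-target pair called 54.8% (PARP1) and 64.8% (PARP2) of all tested features, so differences of this kind were common.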

How the results depend on the processing

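Of 1062 recomputed values of the tested genes, 963 kept their direction and their side of the threshold, 60 lost the call and 19 gained it. A further 17 changed sign without being called before or after, and 3 changed sign with a call on either side. Those 3 were JUND in UPF1069 minus olaparib after the GC and length correction (-0.11, adjusted p = 0.016), and FOS (-0.10) and FOSL2 (-0.13) in the siPARP2 mean minus the siPARP1 mean without both siPARP2_B libraries, which left 1 of 7 genes called there. The count of the 8 genes called with siPARP1_A (1) was 2 with edgeR, with or without the filter, 3 with relative log expression size factors, 0 with DESeq2, 2 with only the groups compared and 2 after the GC correction. With siPARP2_A (2) it was 1 with DESeq2 and 1 after the GC correction. For UPF1069 minus olaparib (4) it was 2 with DESeq2, and for siPARP1_A minus siPARP1_B (1) it was 2 with only the groups compared. Leaving out 1 library at a time gave 2 to 3 genes with UPF1069 (4), 2 to 3 for UPF1069 minus olaparib, 0 to 2 with siPARP1_A, 1 to 4 with siPARP1_B (3), 1 to 4 with siPARP2_A, 4 to 7 with siPARP2_B (7) and 1 to 2 for siPARP1_A minus siPARP1_B. Features called with UPF1069 (3245) numbered 2146 with DESeq2, 5041 with only the groups compared and 1575 to 1770 with 1 library left out. Those called with veliparib (5387) numbered 3024 after the GC correction and 3560 to 6780 with 1 library left out. Except where an alternative used fewer libraries, the cause was not tested. The labels give groups the same replicate numbers but do not say that a number marks a shared culture, and the deviations of same-numbered libraries did not correlate throughout (-0.0598 to 0.0297 over 6 inhibitor pairs; -0.141 to 0.115 over 10 siRNA pairs, 1 of them over 0.1). With the replicate number as a block, siPARP1_A called 2 of the 8 genes, JUND being added (adjusted p = 0.00527), UPF1069 called 3 genes and 3011 features, FOSL2 being lost (0.0541), and no other call of the 8 genes changed. Depth limited FOS, EGR1 and IER3 in the inhibitor libraries, where 3 reads correspond to 0.0841 to 0.113 CPM. In the siRNA libraries, where 3 reads correspond to 0.169 to 0.207 scaled CPM, it limited EGR1 and FOS (5 to 17 reads outside siPARP2_B).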
